A study of Mus musculus with 16 samples.

Results

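The 7 genes described here, Hmgcs1, Idi1, Fdft1, Sqle, Lss, Cyp51 and Dhcr7, encode enzymes of cholesterol synthesis and were measured in the cerebellum of mice with and without Atm. They were found on the arrays through the RefSeq accession of each probe, which gave 11 probes: 3 for Lss, 2 each for Fdft1 and Cyp51, and 1 for each other gene. All 7 genes passed the filter on dim probes, among 16737 named genes and 37253 probes that did. All 11 probes were well above background on all 16 arrays.

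Cells make cholesterol from acetyl-CoA in a chain of reactions that first builds isoprenoid units, joins them into squalene, and closes squalene into the sterol ring. The transcription factor SREBP-2, encoded by Srebf2, raises the transcription of nearly the whole chain when sterol in the endoplasmic reticulum membrane is low, so the mRNAs of these enzymes commonly rise and fall together. In the brain nearly all cholesterol is made locally, because lipoproteins do not cross the blood-brain barrier. Much of it goes into myelin, and in the adult brain astrocytes supply a large share of the new sterol.

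RNA came from the cerebellar cortex of 16 mice of the strain B6;129S4-Atmtm1Bal/J, aged 3.5 months, with 4 mice in each of 4 groups. WT veh and WT NR mice were wild-type littermates, and Atm-/- veh and Atm-/- NR mice were homozygous for the targeted Atm allele in every cell of the body. The NR groups drank water with nicotinamide riboside, a precursor of NAD+, at 3.5 mg/ml (12 mM) for 2 months, and the veh groups drank water alone. The comparisons ask how the loss of Atm changes expression in the cerebellum, and what NR changes in either genotype.

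Each mouse was hybridized to its own 1-color array, on which 34945 to 42559 probes were well above background. All values below are log2 of the normalized signal, and a log2 change is a difference between the means of groups. Of the 2 Atm probes kept, the dimmer was lower on every Atm-/- array (7.72 to 8.08) than on any WT array (8.52 to 9.03), and the brighter had a change of -0.35 in Atm-/- veh against WT veh that was not called (limma's adjusted p = 0.221). Gfap of astrocytes, Gabra6 of granule cells and Pcp2 of Purkinje cells were well above background on all 16 arrays. The labels give all mice as male, but Y-linked genes were not well above background on 4 arrays, namely Atm-/- veh 3, Atm-/- NR 4 and replicates 1 and 4 of WT NR. Xist, which female cells express, was well above background on those 4 arrays alone. Without the filter on dim probes it read 6.68 to 7.80 there and 3.34 or less on the others. By these genes, against the labels, 0 mice of WT veh, 2 of WT NR, 1 of Atm-/- veh and 1 of Atm-/- NR were female. Markers of red blood cells stood 2.33 above their own means on Atm-/- veh 3, and choroid plexus markers 4.61 above theirs on WT veh 4. Slide 1 held the 8 arrays of WT mice and slide 2 the 8 of Atm-/- mice, and the part of the slide in a difference between genotypes cannot be told apart from that of genotype.

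The RefSeq promoter table (GRCm38.p6) held Hmgcs1, Idi1, Lss, Cyp51 and Dhcr7, the last with 3 start sites. The 250 bases before the start are shown for 4 of them, because these genes differed in how closely they moved with Hmgcs1. They run 5′ to 3′ on the strand of the gene, and capitals mark matches, on either strand, to the sterol regulatory element TCACNCCAC that SREBP binds, to CCAAT (the NF-Y box), and to CCGCCC (an Sp1 box).
Hmgcs1, chr13:119690101-119690350, plus strand: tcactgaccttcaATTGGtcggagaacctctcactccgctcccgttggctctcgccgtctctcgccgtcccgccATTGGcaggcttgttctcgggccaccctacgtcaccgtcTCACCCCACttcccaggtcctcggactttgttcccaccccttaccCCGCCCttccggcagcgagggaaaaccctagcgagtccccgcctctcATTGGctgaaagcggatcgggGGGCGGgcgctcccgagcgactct
Idi1, chr13:8885356-8885605, plus strand: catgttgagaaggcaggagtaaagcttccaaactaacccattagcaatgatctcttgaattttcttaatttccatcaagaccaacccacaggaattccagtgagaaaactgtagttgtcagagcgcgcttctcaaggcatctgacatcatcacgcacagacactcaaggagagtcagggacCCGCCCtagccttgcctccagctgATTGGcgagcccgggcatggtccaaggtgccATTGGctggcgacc
Lss, chr10:76531355-76531604, plus strand: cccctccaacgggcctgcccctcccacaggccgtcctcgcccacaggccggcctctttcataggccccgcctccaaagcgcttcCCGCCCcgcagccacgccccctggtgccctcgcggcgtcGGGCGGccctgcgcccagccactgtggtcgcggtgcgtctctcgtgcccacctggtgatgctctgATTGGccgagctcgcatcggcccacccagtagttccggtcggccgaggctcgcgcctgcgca
Cyp51, chr5:4104698-4104947, minus strand: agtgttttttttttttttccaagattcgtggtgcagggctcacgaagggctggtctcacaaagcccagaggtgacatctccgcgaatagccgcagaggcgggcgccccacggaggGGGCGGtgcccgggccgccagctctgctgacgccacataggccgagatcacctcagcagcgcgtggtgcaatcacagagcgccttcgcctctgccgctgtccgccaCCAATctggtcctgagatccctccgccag
The Hmgcs1 window held 1 sterol regulatory element, starting 137 bases before the transcription start, and 3 CCAAT matches. Of the 5 genes in the table, Hmgcs1 alone had a match to the element as spelled here, which 1.05% of the 32851 promoters in the table contain. CCAAT was found for 5 of 5 genes and in 33.8% of all promoters, and CCGCCC for 5 of 5 genes and in 32.7%. The 3 motifs do not overlap in these windows. Such matches describe the letters only.

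The clearest pattern among the 7 genes lay in Atm-/- veh mice, where Hmgcs1, Idi1, Sqle and Cyp51 had their lowest group means, but no gene passed the test in any comparison. In limma's model across all probes, 0 of 7 genes were called at an adjusted p under 0.05 for Atm-/- veh against WT veh, where 0.0538% of all genes, each by its brightest probe, were called. At an unadjusted p under 0.05, 3 of 7 genes differed, all lower in Atm-/- veh, while 9.73% of all genes were lower at that level and 16.8% differed in either direction. The median log2 change of the 7 genes was -0.27, beside -0.03 over all named genes, and 5 of 7 had a lower mean, as did 55.4% of all genes.

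Hmgcs1 encodes the cytosolic HMG-CoA synthase, which makes the precursor of mevalonate. Its log2 signals were 14.83, 14.60, 14.49 and 14.94 on the WT veh arrays and 14.40, 14.50, 13.92 and 14.39 on the Atm-/- veh arrays. With NR they were 14.43, 14.83, 14.72 and 14.92 in WT NR and 14.48, 14.73, 14.55 and 14.45 in Atm-/- NR. Atm-/- veh 2, at 14.50, lay just above WT veh 3, and the other 3 Atm-/- veh arrays lay below every WT veh array, so the groups overlapped at their edges. The change was -0.41 (SE 0.14), a fold of 0.752, with an unadjusted p = 0.0124 and an adjusted p = 0.244 by limma. In mice given NR the same genotype difference was -0.17 (SE 0.14), and it was not called.

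Idi1, isopentenyl-diphosphate isomerase, interconverts the isoprenoid building blocks. Its signals were 13.04, 12.97, 12.90 and 12.83 in WT veh and 12.74, 12.80, 12.18 and 12.78 in Atm-/- veh. All 4 Atm-/- veh arrays lay below all 4 WT veh arrays, and Idi1 was the single gene of the 7 whose groups did not overlap in this comparison, against 8.74% of all genes (4.84% with Atm-/- veh lower). The change was -0.31 (SE 0.13, unadjusted p = 0.0309, limma's adjusted p = 0.299). On the Atm-/- NR arrays Idi1 read 12.79, 13.06, 13.05 and 12.88, a mean of 12.95 ± 0.13 (SD, n = 4) beside 12.93 ± 0.09 in WT veh.

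Fdft1 encodes squalene synthase, the first enzyme committed to sterols. It read 13.40, 13.37, 13.15 and 13.90 in WT veh and 13.25, 13.20, 12.92 and 13.36 in Atm-/- veh, so the groups overlapped. The change was -0.27 (SE 0.15, limma's adjusted p = 0.416), and it was -0.13 without WT veh 4, the brightest array for this gene. Its second probe gave -0.22.

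Sqle, squalene epoxidase, adds the oxygen that lets the ring close and is a rate-limiting step of the pathway. Its signals were 13.18, 12.77, 12.51 and 13.39 in WT veh and 12.53, 12.66, 12.15 and 12.46 in Atm-/- veh. Its log2 change, -0.51 (SE 0.18), was the lowest of the 7, a fold of 0.701, with an unadjusted p = 0.0132 and limma's adjusted p = 0.249. The groups overlapped because WT veh 3 lay below the 2 highest Atm-/- veh arrays.

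Lss closes the ring to lanosterol, Cyp51 removes a methyl group from lanosterol, and Dhcr7 carries out the final reduction of one branch to cholesterol. Their log2 changes in Atm-/- veh were 0.01 (SE 0.19), -0.14 (SE 0.16) and 0.03 (SE 0.23), with limma's adjusted p at 0.983, 0.724 and 0.957. The 95% intervals reached from -0.41 to 0.43 for Lss, from -0.49 to 0.21 for Cyp51 and from -0.45 to 0.52 for Dhcr7, which is the precision that 4 arrays a group gave. Dhcr7 had the widest spread of the 7 in Atm-/- veh, with 10.29, 9.80, 8.93 and 9.77 on its 4 arrays.

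**Figure D1:**
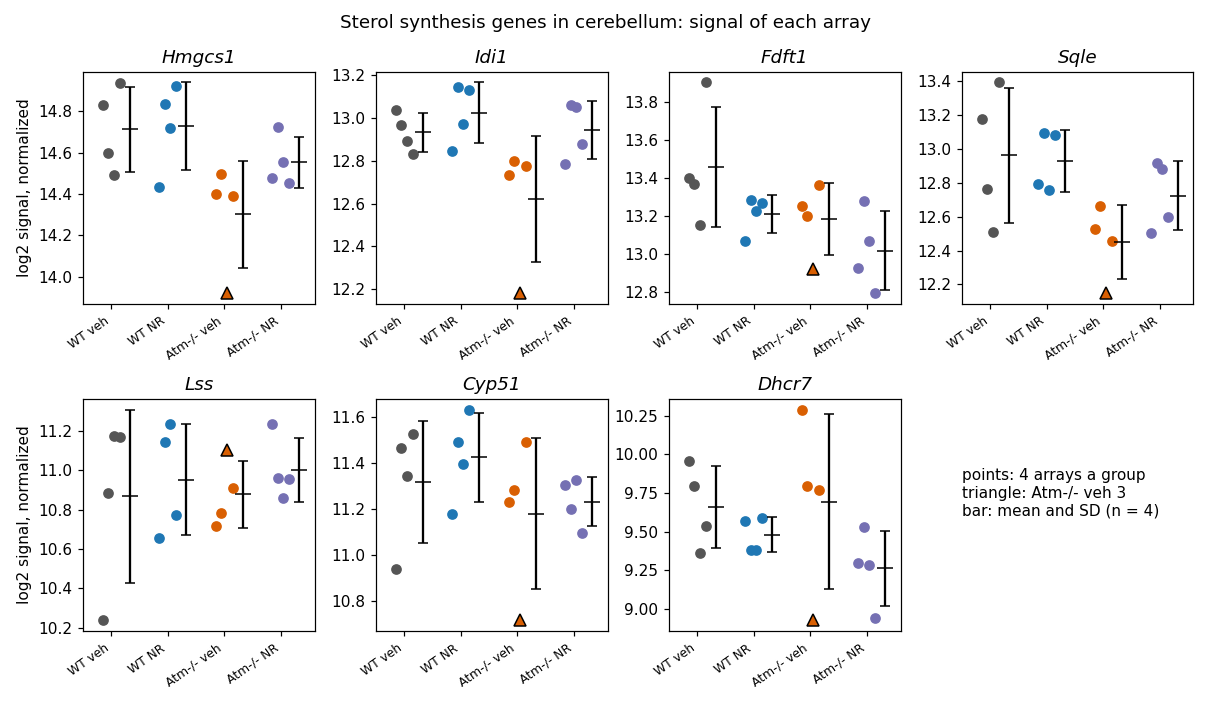
Normalized log2 signal (vertical axis) of the brightest probe of each gene on the 16 arrays, by group (horizontal axis), with the mean and SD of 4 arrays as a bar beside each group and Atm-/- veh 3 as a triangle. Atm-/- veh 3 is the lowest of all arrays for Hmgcs1 (13.92), Idi1 (12.18), Sqle (12.15), Cyp51 (10.71) and Dhcr7 (8.93), and the other Atm-/- veh arrays lie low for Hmgcs1, Idi1 and Sqle.

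One array, Atm-/- veh 3, was the lowest of all 16 for 5 of the 7 genes. Averaged over the 7 genes, each relative to its own mean, it stood at -0.47, while the other 15 arrays ranged from -0.21 to 0.30. It is among the 4 arrays with Xist signal and without Y-linked signal. It also has the high red blood cell markers, and the part of either in the result was not tested. Without it the changes in Atm-/- veh were -0.28 for Hmgcs1, -0.16 for Idi1 and -0.41 for Sqle, with limma's adjusted p at 0.393, 0.494 and 0.391, and Cyp51 went to 0.02. Without WT veh 4, which carried choroid plexus markers, they were -0.34, -0.34 and -0.37.

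Atm-/- NR mice had higher means of Hmgcs1, Idi1 and Sqle and lower means of Dhcr7 and Fdft1 than Atm-/- veh mice. None of the 7 was called, while 11.5% of all genes were. The change of Idi1 was 0.32 (SE 0.13, unadjusted p = 0.0258, limma's adjusted p = 0.127), and it was the only one of the 7 with an unadjusted p under 0.05, which 30.5% of all genes reached, 17.5% with a higher mean. Hmgcs1 had a change of 0.25 (SE 0.14) and Sqle of 0.28 (SE 0.18), with limma's adjusted p at 0.276 and 0.343. Without Atm-/- veh 3 the changes were 0.12 for Hmgcs1, 0.18 for Idi1 and 0.17 for Sqle, with limma's adjusted p at 0.597, 0.281 and 0.606. In no gene of the 7 were the groups apart, against 26.3% of all genes. This comparison shares the Atm-/- veh arrays with the one above, so low Atm-/- veh values enter both.

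Dhcr7 went the other way, with signals of 9.30, 9.53, 9.28 and 8.94 in Atm-/- NR. Its change against Atm-/- veh was -0.43 (SE 0.23, limma's adjusted p = 0.240), and without Atm-/- veh 3 it was -0.69 and passed the test (adjusted p = 0.0373), while without Atm-/- veh 1 it was -0.23 (adjusted p = 0.549). Fdft1 had a change of -0.17, Lss of 0.12 and Cyp51 of 0.05.

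Between WT NR and WT veh the means of the 7 genes differed by -0.25 to 0.11. None was called, nor was any other gene (0%), and 0 of 7 reached an unadjusted p under 0.05, as 8.84% of all genes did. In none were the groups apart, against 4.58% of all genes. The intervals of the 7 changes stayed between -0.67 and 0.50. The lowest was Fdft1 at -0.25, whose WT NR arrays read 13.07, 13.28, 13.23 and 13.27. Without WT veh 4 it was -0.097. Between Atm-/- NR and WT NR, 6 of 7 means were lower in Atm-/- NR, as were 47.2% of all genes. The changes ran from -0.22 to 0.05, and 0 of 7 were called where 0.0597% of all genes were. None reached an unadjusted p under 0.05 there, as 4.34% of all genes did, and in none were the groups apart, against 4.53%. The difference between the NR effects of the genotypes ranged from -0.25 for Dhcr7 to 0.31 for Sqle, with limma's adjusted p from 0.851 to 0.986, and no gene was called (0%). None of the 7 reached an unadjusted p under 0.05 in it, as 5.96% of all genes did.

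**Figure D2:**
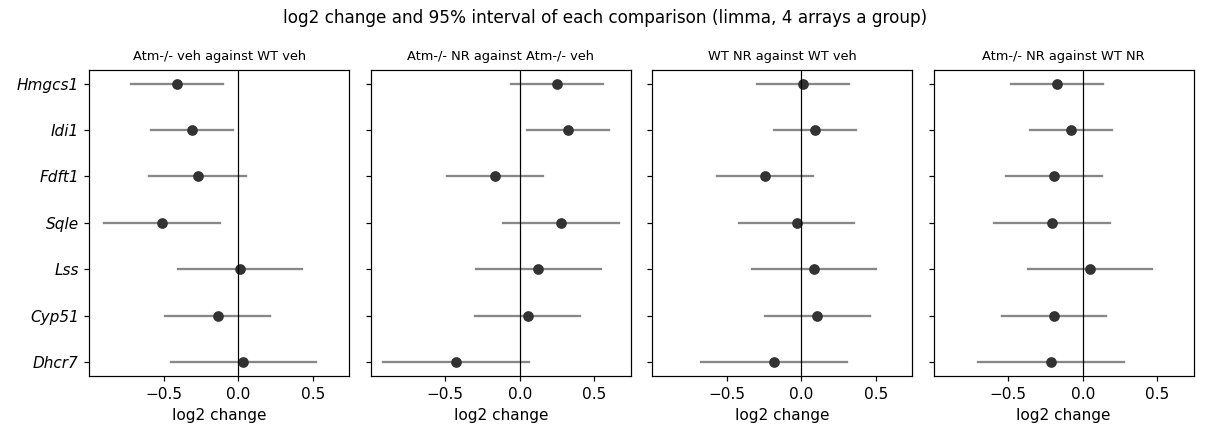
log2 change (horizontal axis, points) of the 7 genes in 4 comparisons, with the 95% interval from limma's model as a line. In Atm-/- veh against WT veh the intervals of Hmgcs1, Idi1 and Sqle lie below 0, before any adjustment for the number of probes, and in Atm-/- NR against Atm-/- veh that of Idi1 lies above 0.

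The order of the group means was not shared by all 7 genes. Hmgcs1 and Cyp51 ran from WT NR through WT veh and Atm-/- NR to Atm-/- veh, and Sqle likewise with WT veh first. Idi1 had Atm-/- NR between WT NR and WT veh, and Fdft1 ended with Atm-/- NR in place of Atm-/- veh. Dhcr7 was highest in Atm-/- veh and lowest in Atm-/- NR, with a span of 0.43. The span from the highest to the lowest mean was 0.43 for Hmgcs1 and 0.51 for Sqle beside an SD of single arrays within groups of 0.21 and 0.27. For Lss, highest in Atm-/- NR and lowest in WT veh, the span was 0.14 and the SD 0.29. Limma's test for any difference among the 4 groups called 0 of 7 genes and 6.14% of all genes. Hmgcs1, Idi1 and Sqle had an unadjusted p of 0.0349, 0.0362 and 0.0473 in it, and 27% of all genes were under 0.05. Of neighbors in these orders, limma compared WT NR with WT veh and Atm-/- NR with Atm-/- veh, or the genotypes at the same treatment, with none past the threshold. WT veh was not tested against Atm-/- NR, nor WT NR against Atm-/- veh.

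Across single arrays Hmgcs1, Idi1 and Sqle moved together. Hmgcs1 and Sqle had Pearson's r = 0.92 over the 16 arrays (permutation p = 1e-05, the smallest that 100000 permutations can give, and 2.1e-04 after Benjamini-Hochberg adjustment over 21 pairs) and Spearman's rho = 0.88 (permutation p = 3e-05, adjusted 6.3e-04). The r was 0.85 on slide 1, 0.92 on slide 2, 0.94 over the 12 arrays with Y-linked signal and 0.88 without Atm-/- veh 3 and WT veh 4, the arrays farthest from the median of Hmgcs1. All values of an array share its labeling and normalization. The permutations ran over all 16 arrays without regard to group or slide, so a shift shared by a group or slide counts in them. For deviations from group means r was 0.86 for Hmgcs1 with Sqle, 0.77 for Hmgcs1 with Idi1 and 0.55 for Idi1 with Sqle, with no test.

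Hmgcs1 and Idi1 had r = 0.85 (permutation p = 2e-04, adjusted 0.0021) and rho = 0.76 (permutation p = 8.7e-04, adjusted 0.0091). That relation was 0.97 on slide 2 and 0.51 on slide 1, 0.89 without the 2 farthest arrays and 0.61 over the 12 arrays with Y-linked signal. For Idi1 and Sqle r was 0.71 (adjusted permutation p = 0.0116), with 0.94 on slide 2 and 0.22 on slide 1, so among WT mice it was weak. It was 0.54 without the 2 farthest arrays, Atm-/- veh 3 and WT NR 2, and 0.54 over the 12 arrays with Y-linked signal. Of the 21 pairs, 7 had an adjusted permutation p under 0.05 by Pearson's r, 6 by Spearman's rho and 5 by both.

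Fdft1 had r = 0.64 with Hmgcs1 (rho = 0.62, adjusted permutation p = 0.0431 and 0.042) and 0.69 with Sqle. By Spearman's rho the pair with Sqle did not pass (0.59, adjusted permutation p = 0.0543). Without the 2 farthest arrays of each pair r was 0.45 with Hmgcs1 and 0.55 with Sqle. The values were 0.65 and 0.76 on slide 1 and 0.36 and 0.30 on slide 2. Cyp51 had r = 0.62 with Hmgcs1, which was 0.21 without the 2 farthest arrays, so it rested on those. By the brightest Lss probe, Lss and Dhcr7 ran against each other, with r = -0.59 and rho = -0.64 (adjusted permutation p = 0.0486 and 0.0377). That r was -0.85 on slide 1 and -0.69 on slide 2. The other Lss probes, which did not follow the brightest, were not compared with Dhcr7. Lss had r = -0.12 with Hmgcs1 by its brightest probe.

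The probes of Lss did not measure the same pattern. The second probe, dimmer by about 1 log2 unit, had r = -0.20 with the brightest and 0.79 with Hmgcs1, and the third had -0.35 with the brightest. By the second probe Lss read 10.20, 9.95, 9.90 and 9.92 in WT veh and 9.69, 9.94, 9.57 and 9.70 in Atm-/- veh. Its changes, -0.27 in Atm-/- veh against WT veh and 0.24 in Atm-/- NR against Atm-/- veh (limma's adjusted p = 0.267 and 0.145), had the signs and rough size seen for Idi1. The third Lss probe had r = 0.28 with Hmgcs1 and changes of -0.23 and -0.19, the last opposite in sign to the second probe. The second Cyp51 probe had r = 0.74 with Hmgcs1 and changes of -0.42 and 0.49 (limma's adjusted p = 0.461 and 0.225). It read 6.77 on Atm-/- veh 3 and 8.70 on Atm-/- NR 2, and without the former array the values were -0.18, 0.26 and r = 0.51, while without the latter the second change was 0.24. The probes of Fdft1 agreed at r = 0.91. These other probes correlate with Hmgcs1 as a description over 16 arrays, with no test.

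**Figure D3:**
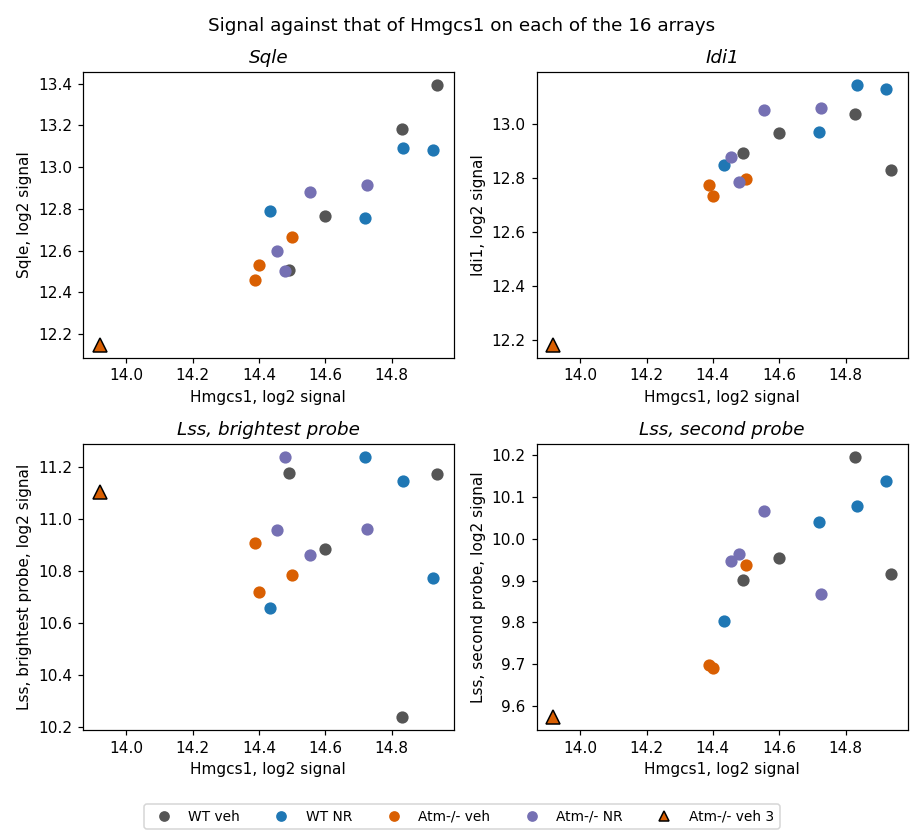
Normalized log2 signal of Sqle, Idi1 and both brighter probes of Lss (vertical axes) against that of Hmgcs1 (horizontal axes), 1 point per array, colored by group, with Atm-/- veh 3 as a triangle. Sqle (r = 0.92), Idi1 (r = 0.85) and the second Lss probe (r = 0.79) rise with Hmgcs1, and the brightest Lss probe does not (r = -0.12).

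The rest of the pathway was described by lists of genes. Of the isoprenoid arm, 5 of 6 listed genes were measured (Acat2 was not), and of the late sterol enzymes 8 of 8. In Atm-/- veh against WT veh all 13 had lower means by their brightest probes, with a median of -0.06 in the isoprenoid arm and -0.17 among the late enzymes. None of the 13 was called by limma (2 at an unadjusted p under 0.05, both lower, as were 9.73% of all genes). Together with the 7 genes above, 18 of 20 sterol enzymes were lower (median -0.15), as were 55.4% of all genes, the exceptions being Lss and Dhcr7. The count was 15 of 20 without Atm-/- veh 3 (median -0.11) or without WT veh 1. A count of genes that move together on an array is no count of independent results. In Atm-/- NR against Atm-/- veh 14 of the 20 were higher and 6 lower (median 0.12). There 45.1% of all genes were lower, and the median over all named genes was 0.04.

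Msmo1, a demethylase that acts after Cyp51, followed the 7 genes most closely. It read 13.81, 13.79, 13.56 and 14.13 in WT veh and 13.57, 13.60, 12.91 and 13.55 in Atm-/- veh, a change of -0.42 (SE 0.18, limma's adjusted p = 0.308), and of -0.25 without Atm-/- veh 3 (adjusted p = 0.524). Its second probe gave -0.23. Over the 16 arrays the brightest probe of Msmo1 had r = 0.96 with the mean of the 7 genes. Nsdhl and Sc5d, which act between Msmo1 and Dhcr7, had changes of -0.18 and -0.11 and r = 0.63 and 0.59. Nsdhl was at -0.031 without WT veh 4, and without Atm-/- veh 3 Nsdhl was at -0.11 and Sc5d at -0.042. Sc5d lies within 20 Mb of Atm.

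Mvk, Mvd and Fdps, which phosphorylate mevalonate, decarboxylate it and condense the isoprenoids, had changes of -0.17, -0.06 and -0.06 in Atm-/- veh. Their r with the mean of the 7 genes was 0.37, 0.55 and 0.65. The second Mvk probe gave 0.08 in Atm-/- veh against WT veh. In Atm-/- NR against Atm-/- veh it gave -0.14, beside 0.21 by the brightest. The mean of the other 13 enzymes had r = 0.87 with the mean of the 7 over the 16 arrays, 0.60 on slide 1 and 0.93 on slide 2. Without Atm-/- veh 3 it was 0.73.

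Of 11 genes of sterol sensing, 0 were called by limma in any of these comparisons, and 2 had an unadjusted p under 0.05 in Atm-/- NR against Atm-/- veh, as did 30.5% of all genes. There 8 of the 11 had a higher mean and 3 a lower one (median 0.08), while 45.1% of all genes had a lower mean. Insig2, named after its values were seen and a relative of Insig1, had a change of 0.16 (SE 0.07, limma's adjusted p = 0.144) with the groups apart, as in 26.3% of all genes. In the other direction Srebf2 had a change of -0.46 (SE 0.18, limma's adjusted p = 0.125), with Insig1, which holds SREBP in the endoplasmic reticulum, at -0.36 (SE 0.21, adjusted p = 0.293). Without Atm-/- veh 3 the change of Srebf2 was -0.62 and passed the test (adjusted p = 0.0438). That was 1 of 25 alternatives run, and over single arrays left out the change ran from -0.62 to -0.32. In Atm-/- veh against WT veh the change was -0.15 for Srebf2 and -0.00072 for Insig1. In Atm-/- NR against WT NR it was -0.48 for Srebf2 (SE 0.18, limma's unadjusted p = 0.0203, adjusted p = 0.867) and -0.30 for Insig1 (SE 0.21). The Srebf2 groups were apart there, as were those of 4.53% of all genes, and 4.34% of all genes had an unadjusted p under 0.05.

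Among 17 genes of cholesterol uptake, transport, storage and efflux, 2 were called, both in Atm-/- NR against Atm-/- veh and in opposite directions. Of all genes, 11.5% were called in that comparison. Lrp8, a lipoprotein receptor of neurons that also binds reelin, read 11.004, 11.10, 11.26 and 11.25 in Atm-/- veh and 11.68, 11.65, 11.70 and 11.77 in Atm-/- NR. The groups were apart, as were those of 26.3% of all genes, with a change of 0.55 (SE 0.11, limma's adjusted p = 0.0124). The WT veh arrays lay between 11.20 and 11.66. Its 2 dimmer probes gave 0.38 and 0.02, and over the 12 arrays with Y-linked signal the change of Lrp8 was 0.57 (adjusted p = 0.0553). With the mean of its probes it was 0.32 and not called (adjusted p = 0.243).

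Lrp1, a large endocytic receptor for lipoproteins and other ligands, read 13.28, 13.05, 13.20 and 13.11 in Atm-/- veh and 12.63, 12.44, 12.66 and 12.77 in Atm-/- NR. Its change was -0.54 (SE 0.09, limma's adjusted p = 0.00882), and every Atm-/- NR array lay below every Atm-/- veh array, as for 10.3% of all genes. The WT veh arrays read 12.85 to 13.02. Vldlr, a lipoprotein receptor, had a change of 0.10, Abca1, which exports cholesterol to lipoproteins, of 0.02, and Cyp46a1, which turns cholesterol into a hydroxylated form that leaves the brain, of 0.34 (SE 0.27), with limma's adjusted p at 0.570, 0.967 and 0.432.

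Of 9 measured genes of fatty acid synthesis (Fasn was not measured), Me1, the malic enzyme that supplies NADPH, was called in the same comparison, at 0.30 (SE 0.08, limma's adjusted p = 0.0320). Its second probe gave -0.07, and the call was lost when any of 7 single arrays of the 8 compared was left out, among them Atm-/- veh 3 (adjusted p = 0.0666). Scd1, a fatty acid desaturase, had a change of -0.20 (adjusted p = 0.206). In all, 3 of the 50 other genes of the lists were called in Atm-/- NR against Atm-/- veh, beside 11.5% of all genes, and 0 of 50 in the other comparisons of groups. Limma's test for any difference among the 4 groups called Lrp1 and Lrp8 (adjusted p = 0.0270 and 0.0353), beside 6.14% of all genes.

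**Figure D4:**
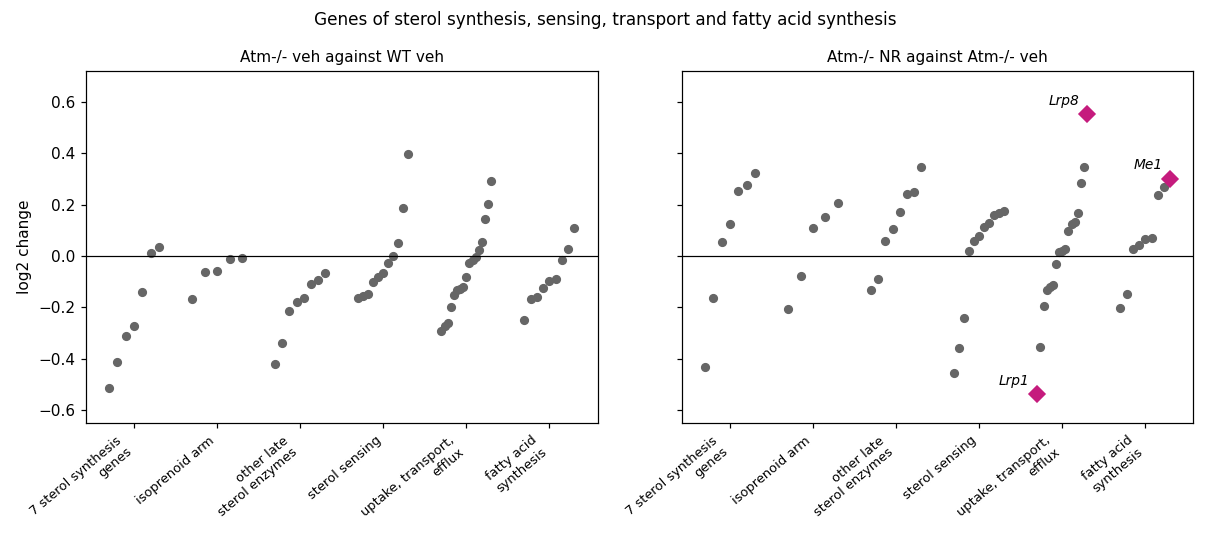
log2 change (vertical axis) of the 7 genes and of each gene of 5 other lists (horizontal axis, sorted within a list) for 2 comparisons, with called genes as labeled diamonds. In Atm-/- veh against WT veh the isoprenoid arm and the late sterol enzymes lie below 0 with no gene called, and in Atm-/- NR against Atm-/- veh Lrp8 (0.55), Me1 (0.30) and Lrp1 (-0.54) are called.

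Outside these lists, the genes whose levels followed the mean of the 7 most closely over the 16 arrays included Ston2 (r = 0.90), Wfdc18 (0.87), Ttpal (0.86) and Cnpy2 (0.85), of 16633 genes with a median r of 0.02. Without Atm-/- veh 3 their r ran from 0.68 to 0.83. Msmo1, at 0.96, stood above all of them. The median r over the 50 pathway genes was 0.21.

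In bulk tissue, fewer cells of a type and less RNA per cell cannot be told apart. Oligodendrocyte markers, whose cells make much sterol, had, relative to each gene's mean, group means (± SD, n = 4) of -0.02 ± 0.30 for WT veh and 0.25 ± 0.24 for WT NR, with -0.07 ± 0.05 for Atm-/- veh and -0.16 ± 0.14 for Atm-/- NR, and 0 of 8 were called in any comparison. On single arrays they ranged from -0.41 to 0.26, 0.05 to 0.59, -0.12 to -0.02 and -0.35 to -0.03. Markers of astrocytes and Bergmann glia ranged from -0.26 to 0.10 in WT veh and from -0.10 to 0.13 in Atm-/- veh, with 0 of 8 called. Over the 16 arrays the mean of the 7 genes had r = 0.39 with the oligodendrocyte markers, -0.41 with the astrocyte markers and -0.67 with the red blood cell markers, the last going to -0.04 without Atm-/- veh 3. It had r = -0.38 with granule cell markers, -0.31 with Purkinje cell, 0.37 with microglia, 0.16 with endothelial cell and 0.48 with choroid plexus markers. Without Atm-/- veh 3 these were -0.60, -0.82, 0.79, 0.84 and 0.68, with 0.54 for oligodendrocyte and -0.34 for astrocyte markers. WT veh 4, the array with the highest mean of the 7 genes (0.30), was also extreme in these lists. It was the highest for choroid plexus (4.61), microglia (0.70) and endothelial cell markers (0.39). It was the lowest for Purkinje cell (-0.46) and granule cell markers (-0.40). The r values without WT veh 4 were not computed. Of the red blood cell list 3 of 4 markers were measured and none called, with -0.27 to 0.29 in WT veh and -0.74 to 2.33 in Atm-/- veh. Of the choroid plexus list 4 of 5 were measured and none called, with -0.61 to 4.61 in WT veh and -1.05 to -0.08 in Atm-/- veh. In Atm-/- NR against Atm-/- veh 1 of 6 Purkinje cell markers, Car8 (1.10, limma's adjusted p = 0.0417), and 1 of 6 measured microglia markers, Sall1 (0.97, adjusted p = 0.0426), were called higher. Of all genes, 11.5% were called there. Of the Purkinje cell markers 2 had a higher mean and 4 a lower one (median -0.04), and of the microglia markers 4 and 2 (median 0.20). In any comparison 0 of 6 granule cell and 0 of 6 endothelial cell markers were called. The part of these cell types in the results was not tested.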

How the data were processed

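Cerebellar RNA of 16 mice was hybridized to 16 Agilent 1-color arrays. The authors deposited Agilent Feature Extraction 12.0.3.1 output (the version as in the submitters' processing notes), which gives the intensity of each spot after subtraction of background and before any normalization across arrays. They also deposited scores, which are z-scores per spot. Genomic alignment does not apply, and the array design is on another build than the names.

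Probes were named through RefSeq accessions (GRCm38.p6), which named 32994 of 56605. A probe counted as detected if a share of 0.5 or more of its spots passed the well-above-background call, and was kept if detected on all 4 arrays of 1 or more groups. The log2 signals were quantile normalized, 2851 spots marked as outliers were set aside and spots of a probe averaged. The brightest kept probe stood for its gene. Group means were compared by limma 3.58.1 in R 4.3.3, with 4 means fitted over all arrays, 12 residual degrees of freedom and Benjamini-Hochberg adjustment over 37253 probes, and called at an adjusted p under 0.05. The model was tested on simulated data. The labels name separate mice, and the number of arrays limits the precision.

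The members, lists, motifs and named genes were chosen with earlier results of these data known. The named genes were the 7 members, Atm, Mvk, Mvd, Fdps, Msmo1, Nsdhl, Sc5d, Srebf2, Insig1, Vldlr, Abca1, Cyp46a1, Scd1 and Fasn, each list gene called in any comparison, the 5 genes most like the mean of the members, and defining markers. Marker lists covered oligodendrocytes, astrocytes and Bergmann glia, granule cells, Purkinje cells, microglia, endothelial cells, choroid plexus and red blood cells. Some genes of these lists and rules are not reported here.

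Replicate numbers are not stated to pair the mice. Over 24 pairs of arrays with the same number, correlations of deviations from group means ran from -0.33 to 0.37, which cannot exclude a shared litter or day. Alternatives were scaling to the 75th percentile, normexp with an offset of 50, the deposited z-scores, other filters on dim probes, a mean over the probes of a gene, each array left out, only arrays with Y-linked signal, only the groups compared, a replicate block, and the t-test and rule of the study's methods (z-ratio of 1.5 or more in size, false discovery rate of 0.3 or less, p of 0.05 or less).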

Additional observations from a re-analysis of the deposited data

Results flagged for a closer look

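Of 28 sets of 4 arrays (7 genes in 4 groups), 1 had an array that stood far from the other 3. Idi1 read 12.18 on Atm-/- veh 3 and 12.74 to 12.80 on the other Atm-/- veh arrays. Chance gives such a gap in about 1 of 20 sets. This array has no Y-linked signal and has high red blood cell markers (2.33), whose part was not tested.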

How the results depend on the processing

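Of the log2 changes of named genes under the alternatives, 1615 kept their direction and their side of the threshold, 67 reversed, 12 lost the call and 2 gained it, and the cause was not tested. The count of called members was 0, and 1 without Atm-/- veh 3 for Atm-/- NR against Atm-/- veh (0 to 1 over single arrays left out) and 1, Hmgcs1, by the methods' t-test at its threshold for Atm-/- veh against WT veh. The other pathway genes called numbered 3 in Atm-/- NR against Atm-/- veh. They were 1 with the mean of all probes, 1 on arrays with Y-linked signal, 14 by the methods' t-test, 7 after Benjamini-Hochberg and 0 by the methods' rule, and 2 to 4 without single arrays. By the methods' t-test they were 4 in Atm-/- veh against WT veh, 1 in WT NR against WT veh and 7 in Atm-/- NR against WT NR, where the methods' rule gave 1. All probes called in Atm-/- NR against Atm-/- veh numbered 3366, with 1866 for the mean of probes, 10019 by the methods' t-test at its threshold, 1285 by the methods' rule, 438 on arrays with Y-linked signal and 862 to 4405 without single arrays, the lowest without Atm-/- veh 1. For Atm-/- veh against WT veh they were 20, with 7 when only these groups were fitted, 4369 by the methods' t-test at its threshold, 0 after Benjamini-Hochberg, 737 by the methods' rule and 12 to 41 without single arrays. On arrays with Y-linked signal 6 were called in WT NR against WT veh (0 before), 2 in the difference in NR effect (0 before) and 10 in Atm-/- NR against WT NR (20 before). The methods' t-test at its threshold and the methods' rule called 2476 and 605 in WT NR against WT veh and 2392 and 566 in Atm-/- NR against WT NR, where the t-test after Benjamini-Hochberg called 10. For any difference among groups they were 1802, with 1159 without a filter, 875 for the mean of probes, 73 on arrays with Y-linked signal and 186 to 2766 without single arrays.

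In Atm-/- veh against WT veh on arrays with Y-linked signal, Lss was -0.064, Cyp51 0.016, Srebf2 0.017, Mvd 0.074, Insig1 0.12, Abca1 -0.050 and Cyp46a1 0.0089. Insig1 was 0.029 with percentile scaling, 0.0025 in z-scores and 0.0017 without a filter. With the mean of probes Lss was -0.16 and Abca1 -0.13 there, Lss -0.063 in WT NR against WT veh and -0.043 in Atm-/- NR against WT NR, and the genotype difference in NR effect of Cyp51 0.24. On arrays with Y-linked signal Cyp51 was -0.057 in Atm-/- NR against Atm-/- veh, and Lss -0.17 in Atm-/- NR against WT NR and -0.11 in the difference in NR effect, where normexp gave -0.015.

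Leaving out single arrays, ranges that crossed 0 in Atm-/- veh against WT veh were -0.20 to 0.11 (Lss), -0.27 to 0.016 (Cyp51), -0.16 to 0.29 (Dhcr7), -0.28 to 0.017 (Srebf2), -0.14 to 0.074 (Mvd), -0.13 to 0.14 (Insig1), -0.12 to 0.048 (Fdps), -0.37 to 0.11 (Cyp46a1) and -0.050 to 0.24 (Abca1). In Atm-/- NR against Atm-/- veh they were -0.10 to 0.16 (Cyp51) and -0.081 to 0.21 (Abca1). In WT NR against WT veh they were -0.060 to 0.11 (Hmgcs1), -0.18 to 0.11 (Sqle), -0.12 to 0.19 (Lss) and -0.020 to 0.19 (Cyp51), and in Atm-/- NR against WT NR -0.048 to 0.15 (Lss). In the difference in NR effect they were -0.063 to 0.25 (Lss), -0.21 to 0.073 (Cyp51) and -0.068 to 0.18 (Fdft1). Hmgcs1 with Sqle stayed at r of 0.90 to 0.94 and with Idi1 at 0.61 to 0.94 under the alternatives run. These correlations, the counts over 20 enzymes, the dimmer probes without single arrays and the changes of the other named genes were added after seeing the data.

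With the replicate number as a block, 0 members were called in every comparison, and the probes with any difference among groups were 1154. Numbers are not stated to pair these mice, and 2 of 16 arrays correlated best with their own number. Slide as a block was not run, since slide and genotype coincide. The 4 arrays a group limit precision.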
